A study of Mus musculus with 12 samples.

Results

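Mitochondrial ribosomal proteins are encoded in the nucleus, translated in the cytosol and imported into mitochondria. There they form, with ribosomal RNAs transcribed from mitochondrial DNA (mtDNA), a ribosome that translates the mtDNA messages for subunits of the oxidative phosphorylation complexes. Its large subunit carries the peptidyl transferase center, the stalk that recruits elongation factors and the exit tunnel, and its small subunit carries the decoding region. Hepatocytes are rich in mitochondria, and the genes of this ribosome are broadly expressed. The mRNAs of these proteins were examined here in the livers of mice that lack phosphoglycerate dehydrogenase (Phgdh), the enzyme that commits 3-phosphoglycerate to serine synthesis, in hepatocytes. Members were chosen by symbol, as genes whose name begins with Mrpl (large subunit) or Mrps (small subunit) followed by a number and whose RefSeq accession is listed for a probe of the array. This gave 78 genes with 99 probes, 49 of the large and 29 of the small subunit. The rule itself used no measured value, though earlier results of these data were known when it was set. Of these, 77 were among the 16915 genes tested, and only the large-subunit gene Mrpl21 was too dim: its probe was well above background on 0 of 6 Floxed and 1 of 6 LKO arrays.

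Liver RNA of 12 male C57BL/6 mice aged 30 weeks was hybridized in a single color to Agilent whole-genome arrays, 1 mouse per array. The 6 LKO mice carried Cre recombinase under the albumin promoter, which is active in hepatocytes, on Phgdh flox/flox alleles, so that the fourth and the fifth exons were deleted there while other liver cells kept the gene. The 6 Floxed controls were littermates with the same Phgdh flox/flox alleles and no Cre, and both groups ate chow with 20% casein. Slide 1 held Floxed 1 to 4, slide 2 held Floxed 5 and 6 with LKO 1 and 2, and slide 3 held LKO 3 to 6, so genotype and slide can be told apart only on slide 2. Each array had 21614 to 24252 of 39429 probes well above background, and no spot was saturated. The values below are log2 intensities after quantile normalization, 1 probe per gene, and a fold change is LKO over Floxed on that scale. The precision is limited by the number of arrays, 6 per group.

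The targeted gene was checked first. Phgdh gave values between 4.81 and 5.50 in Floxed mice and between 4.23 and 5.30 in LKO mice. Its log2 fold change was -0.48 (SE 0.18, limma p = 0.0179 before adjustment, exact permutation p = 0.0346, limma's Benjamini-Hochberg adjusted p = 0.451). The exact permutation tests quoted here are two-sided, over the 12 values of a gene, were run for 35 named genes and are not adjusted. The adjusted p is over all genes tested. The arrays labeled LKO 1 and LKO 2 had 5.07 and 5.30, inside the Floxed range, and on slide 2 the difference was -0.055. Where the probe lies relative to the deleted exons was not determined here. By qRT-PCR and Western blot, the study reports Phgdh mRNA and protein as reduced, though not abolished, in LKO livers. All 7 hepatocyte markers examined were tested and 0 were called, with 2 higher and 5 lower in LKO mice. Their log2 fold changes ran from -0.25 for Apoa1 to 0.11 for Ttr. The mean deviation of that list ran from -0.018 to 0.043 in Floxed and from -0.048 to 0.020 in LKO mice. Markers of other liver cells were detected too. Their only call among Kupffer, endothelial, stellate, cholangiocyte, blood and lymphocyte lists was Pecam1, an endothelial adhesion molecule (log2 fold change 0.70, limma adjusted p = 0.273). That is 1 of 6 endothelial markers, 16.7%, beside 8.35% of all genes. The endothelial list had 4 markers higher and 2 lower in LKO mice, with a median of 0.06. All 6 Kupffer markers were lower in LKO mice and 0 were called, with a median of -0.11. Among the lists named above, the Kupffer list varied most between mice, from -0.54 to 0.98 in Floxed and from -0.82 to 0.70 in LKO mice on its mean deviation. In whole liver, fewer cells of a type and less RNA per cell cannot be told apart, and the part of cell composition in the values below was not tested.

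Promoters of nuclear genes for mitochondrial proteins are known for sites of the transcription factors GABP (an ETS factor), NRF1 and YY1, so the start regions of the members were read for these letters. RefSeq (GRCm38.p6) gave 75 windows for 69 of the 78 members, each from 250 bases before to 50 bases after a transcript start. On both strands, the ETS letters CCGGAAG stood in 34.7% of the member windows and in 8.86% of all 32851 windows. The NRF1 letters, GCGCA and GCGC with a base of any kind (N) between them, stood in 17.3% against 4.6%, and the YY1 letters AAGATGGC in 16.0% against 2.75%. A CCAAT box was as frequent in members as elsewhere (40.0% against 37.4%), and the E-box CACGTG stood in 9.33% against 7.15%. No matches of different motifs overlapped. In all, 43 members held at least 1 of the ETS, NRF1 and YY1 letters. Windows are shown for the genes that recur in the results below: Mrpl27 with an ETS match, Mrps11 with a YY1 match and a start 42 bases from that of Mrpl46, and Mrps12 with both kinds. Mrps26 is added as a member with ETS and NRF1 matches side by side. Capitals mark the matched letters on either strand, the sequence runs 5′ to 3′ on the strand of the gene, and the last 50 bases follow the transcript start.
Mrpl27, chr11:94653541-94653840, plus strand: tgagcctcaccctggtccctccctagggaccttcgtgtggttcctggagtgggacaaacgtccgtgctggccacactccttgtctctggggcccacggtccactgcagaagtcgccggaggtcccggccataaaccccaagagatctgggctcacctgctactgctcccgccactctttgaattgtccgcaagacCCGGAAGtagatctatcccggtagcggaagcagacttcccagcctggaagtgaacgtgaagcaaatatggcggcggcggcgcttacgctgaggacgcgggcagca
Mrps11, chr7:78782881-78783180, plus strand: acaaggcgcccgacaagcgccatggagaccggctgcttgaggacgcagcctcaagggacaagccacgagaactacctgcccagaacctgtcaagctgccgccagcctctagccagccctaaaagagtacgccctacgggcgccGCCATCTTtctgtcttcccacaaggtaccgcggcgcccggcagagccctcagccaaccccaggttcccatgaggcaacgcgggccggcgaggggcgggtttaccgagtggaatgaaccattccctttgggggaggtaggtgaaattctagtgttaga
Mrps12, chr7:28741772-28742071, minus strand: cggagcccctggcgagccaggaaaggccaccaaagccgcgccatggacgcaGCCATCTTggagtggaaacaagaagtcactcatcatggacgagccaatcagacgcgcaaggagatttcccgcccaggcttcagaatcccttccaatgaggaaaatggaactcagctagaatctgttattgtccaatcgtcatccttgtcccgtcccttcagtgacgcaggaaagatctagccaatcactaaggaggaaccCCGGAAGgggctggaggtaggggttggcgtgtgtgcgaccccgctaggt
Mrps26, chr2:130563507-130563806, plus strand: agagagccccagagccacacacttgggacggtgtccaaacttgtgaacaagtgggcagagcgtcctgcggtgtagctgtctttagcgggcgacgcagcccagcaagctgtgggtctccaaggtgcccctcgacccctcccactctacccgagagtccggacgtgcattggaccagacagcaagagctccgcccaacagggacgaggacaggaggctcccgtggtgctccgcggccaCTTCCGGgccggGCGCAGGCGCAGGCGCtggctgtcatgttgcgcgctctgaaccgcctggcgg

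The mRNAs of the mitochondrial ribosome differed little between LKO and Floxed livers. A gene was called when its limma p, without adjustment, fell under 0.05, the criterion of the study's array methods. Of the 77 members tested, 0 were called, where 8.35% of all genes tested were (1413 of 16915, with 4.92% higher and 3.43% lower in LKO mice). The test of the study's methods, which uses each gene's own variance, called 1 member, Mrps36, and 7.31% of all genes. After Benjamini-Hochberg adjustment limma called 0 genes of the array and that test 1, which is no member. With slide as a fixed block 0 members were called, beside 1.87% of all genes, and with slide as a random block 0, beside 11.4%. Log2 fold changes ran from -0.11 for Mrpl47 to 0.20 for Mrpl46, with 48 members higher and 29 lower in LKO mice. Their median was 0.022, against -0.0035 for all genes tested. No member had groups of 6 that did not overlap, which 0.296% of all genes had. Among the 2656 genes in the middle 50% of the members' brightness, 2.33% were called.

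In the fit without slide, the 95% interval of every one of the 77 members lay within 1.5-fold in either direction, as it did for 78.2% of all genes. For 56 members it lay within 1.2-fold, as it did for 24.8% of all genes. It lay within 1.1-fold for 0 members. The widest bounds were -0.34 for Mrpl47 and 0.46 for Mrpl46 on the log2 scale, or 0.789-fold and 1.37-fold. These intervals leave out any difference between slides. With slide as a fixed block, the interval lay within 1.5-fold for 75 members, all but Mrpl28 and Mrpl37, and within 1.2-fold for 0 members. The pooled SD between mice of a group had a median of 0.115 over the members and of 0.222 over all genes. At matched brightness the gap was smaller, with 0.104 for the 39 members and 0.166 for all genes in that range.

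**Figure D1:**
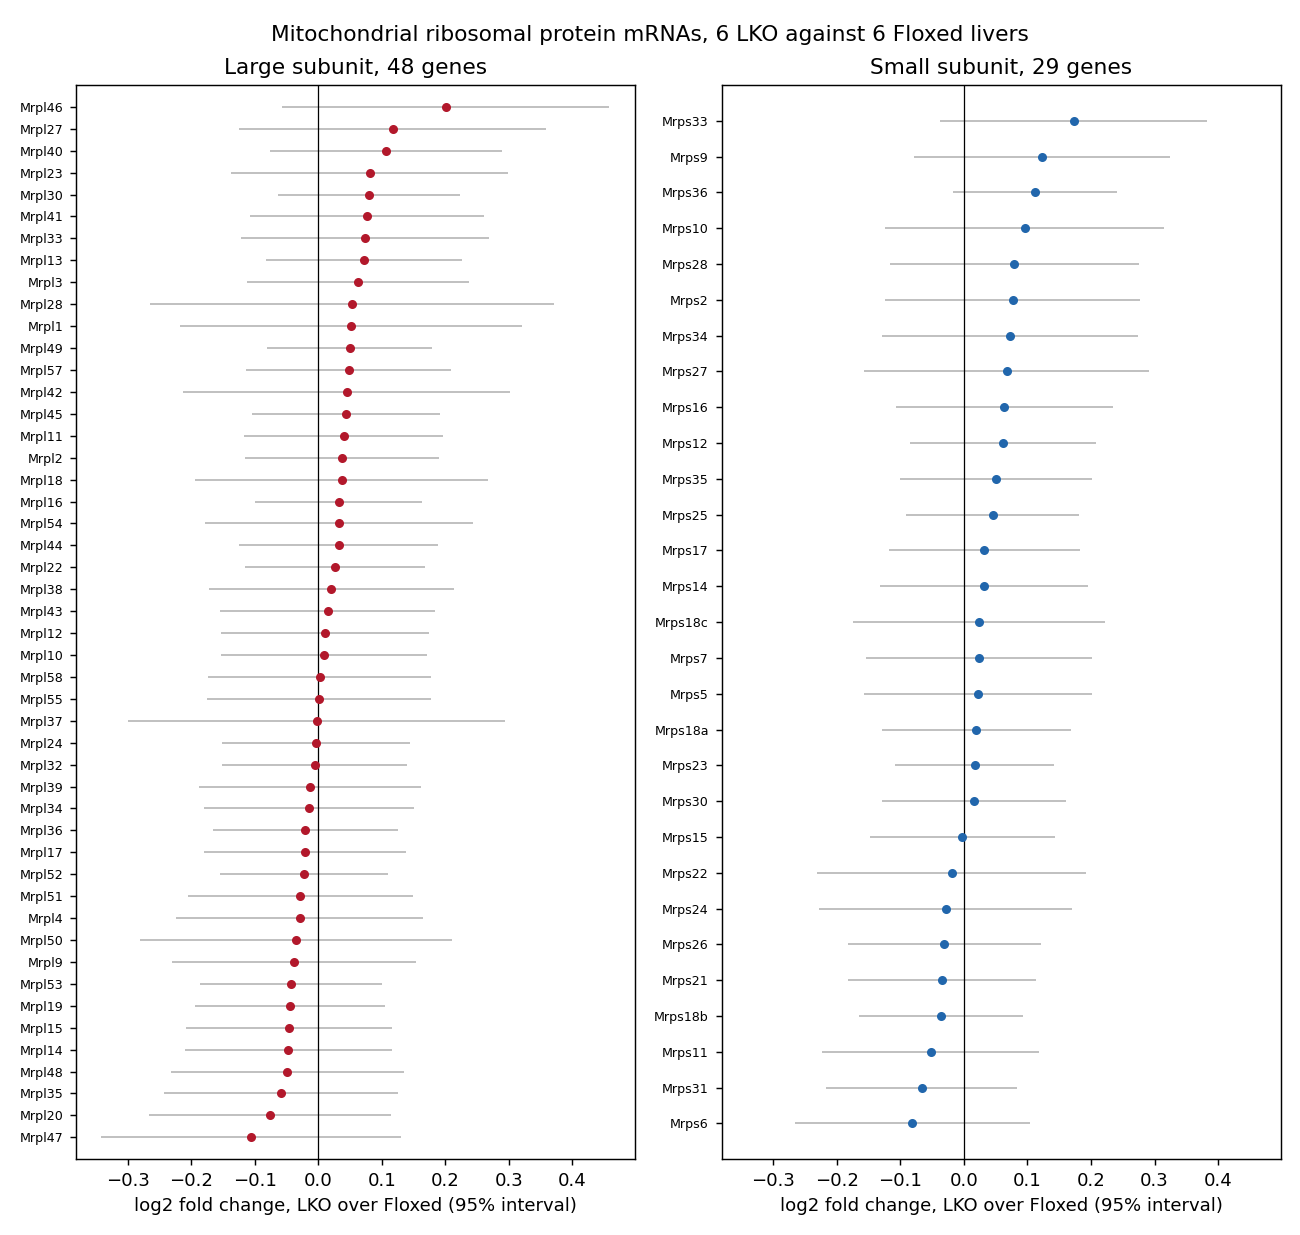
Log2 fold change of LKO over Floxed livers (horizontal axis) for each tested gene of the large subunit (left, 48 genes) and of the small subunit (right, 29 genes), with bars for the limma 95% interval. Every bar crosses 0, and the points lie between -0.11 and 0.20.

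The subunits were then compared. In the large subunit, 28 of 48 log2 fold changes were above 0 and 20 below, and the median was 0.013, with quartiles of -0.024 and 0.048. In the small subunit, 20 of 29 were above 0 and 9 below, and the median was 0.024, with quartiles of -0.019 and 0.067. For each mouse, the distances of a subunit's genes from their own 12-array means were averaged. This mean deviation was -0.0080 ± 0.072 (SD, n = 6) in Floxed and 0.0079 ± 0.036 (SD, n = 6) in LKO mice for the large subunit. For the small subunit it was -0.015 ± 0.057 (SD, n = 6) and 0.015 ± 0.030 (SD, n = 6). The differences between genotypes were thus smaller than the spread between mice in both subunits. Large minus small deviation was 0.0067 ± 0.018 (SD, n = 6) in Floxed and -0.0067 ± 0.024 (SD, n = 6) in LKO mice, also within the spread. On slide 2 alone, with 2 mice per group, the median difference was 0.039 in each subunit, and 55 of 77 members were higher in LKO mice. There, 46 of 77 members kept the sign that they had over all 12 arrays, which include those of slide 2.

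Within the subunits, proteins with a bacterial counterpart and those found only in mitochondrial ribosomes had similar medians. In the large subunit these were 0.010 over 28 genes and 0.021 over 19 genes, and in the small subunit 0.028 over 16 genes and 0.031 over 10 genes. Genes with and without motif matches were close as well: the median log2 fold change was 0.017 for 25 members with the ETS letters and 0.024 for 43 without, -0.0050 for 13 members with the NRF1 letters and 0.024 for 55 without, and 0.0086 for 12 members with the YY1 letters and 0.023 for 56 without.

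The subunit means spread more widely between mice than between genotypes. Floxed 1 had the lowest mean deviation, -0.12 in the large and -0.088 in the small subunit. Floxed 2, on the same slide, had the highest, 0.10 and 0.082, and LKO 5 came next with 0.066 and 0.072. The other 9 mice lay between -0.040 and 0.034 in both subunits. Of the 77 members, 25 (32.5%) had their lowest value of all 12 arrays in Floxed 1, which held the lowest value of 11.8% of all genes. Floxed 2 held the highest value of 24 members (31.2%, against 11.5% of all genes), and LKO 5 that of 17 members (22.1%, against 15.4%). These were also the arrays with the lowest 75th percentile of intensity (283, 258 and 239, against 341 to 473 on the others), and the part of array brightness was not tested. With scaling to that percentile in place of quantile normalization, Floxed 1 stayed lowest (-0.090 and -0.067), Floxed 2 stayed highest (0.22 and 0.19) and LKO 5 was again next (0.13 and 0.13). Without these 3 arrays, 0 members were called, where 9.29% of all genes were.

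**Figure D2:**
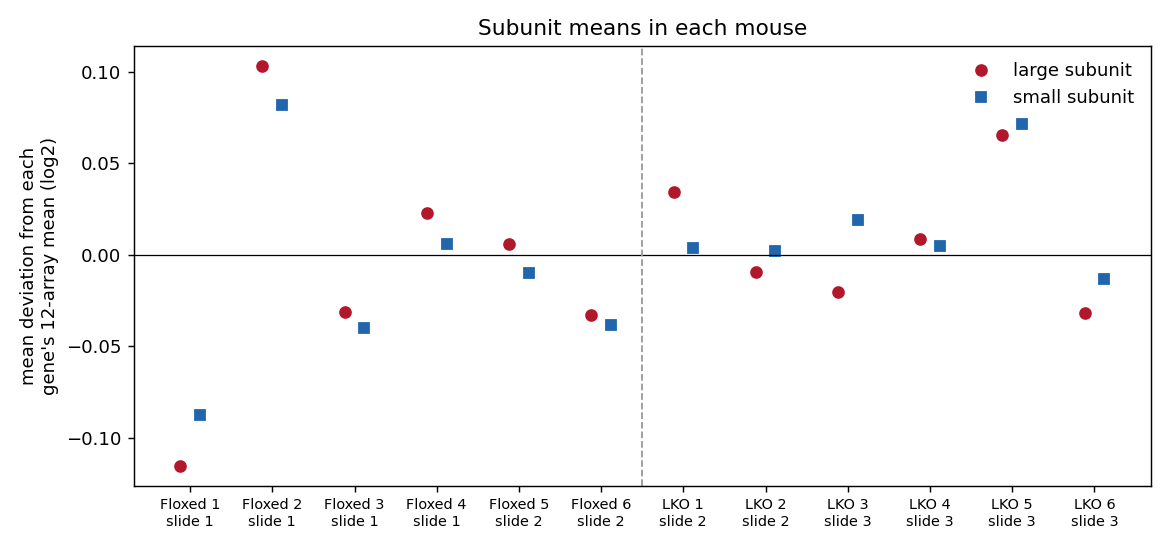
Mean deviation of large-subunit genes (circles) and small-subunit genes (squares) in each mouse, in log2 units around each gene's mean over 12 arrays, with the slide under each mouse and a dashed line between genotypes. The subunits lie close together in each mouse, with Floxed 1 lowest at -0.12 and -0.088 and Floxed 2 highest at 0.10 and 0.082.

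The spread was larger among Floxed than among LKO mice for 52 of 77 members (67.5%), against 50.5% of all genes. The median SD was 0.123 in Floxed and 0.092 in LKO mice. Without Floxed 1 it was 0.114 in Floxed mice, and 46 members had the larger spread there, 42 of them among the 52. The large subunit had 37 such genes of 48 (35 without Floxed 1), and the small subunit had 15 of 29 (11 without Floxed 1). No test of this difference in spread was made.

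In Floxed 1, 9 members lay more than 0.3 below their own mean, and no member did so on any other array. They were Mrpl1, Mrpl27, Mrpl28, Mrpl37, Mrpl42, Mrpl46, Mrps9, Mrps33 and Mrps34, of both subunits. Mrpl28 had 8.98 in Floxed 1 and 9.55 to 9.87 in the other Floxed mice. Mrpl37 had 7.33 against 7.69 to 8.10, and Mrpl42 had 9.58 against 10.02 to 10.36. None of these 9 were called with or without that array, but leaving it out turned the sign for Mrpl1 (0.05 to -0.02), Mrpl28 (0.05 to -0.07) and Mrpl42 (0.05 to -0.05).

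**Figure D3:**
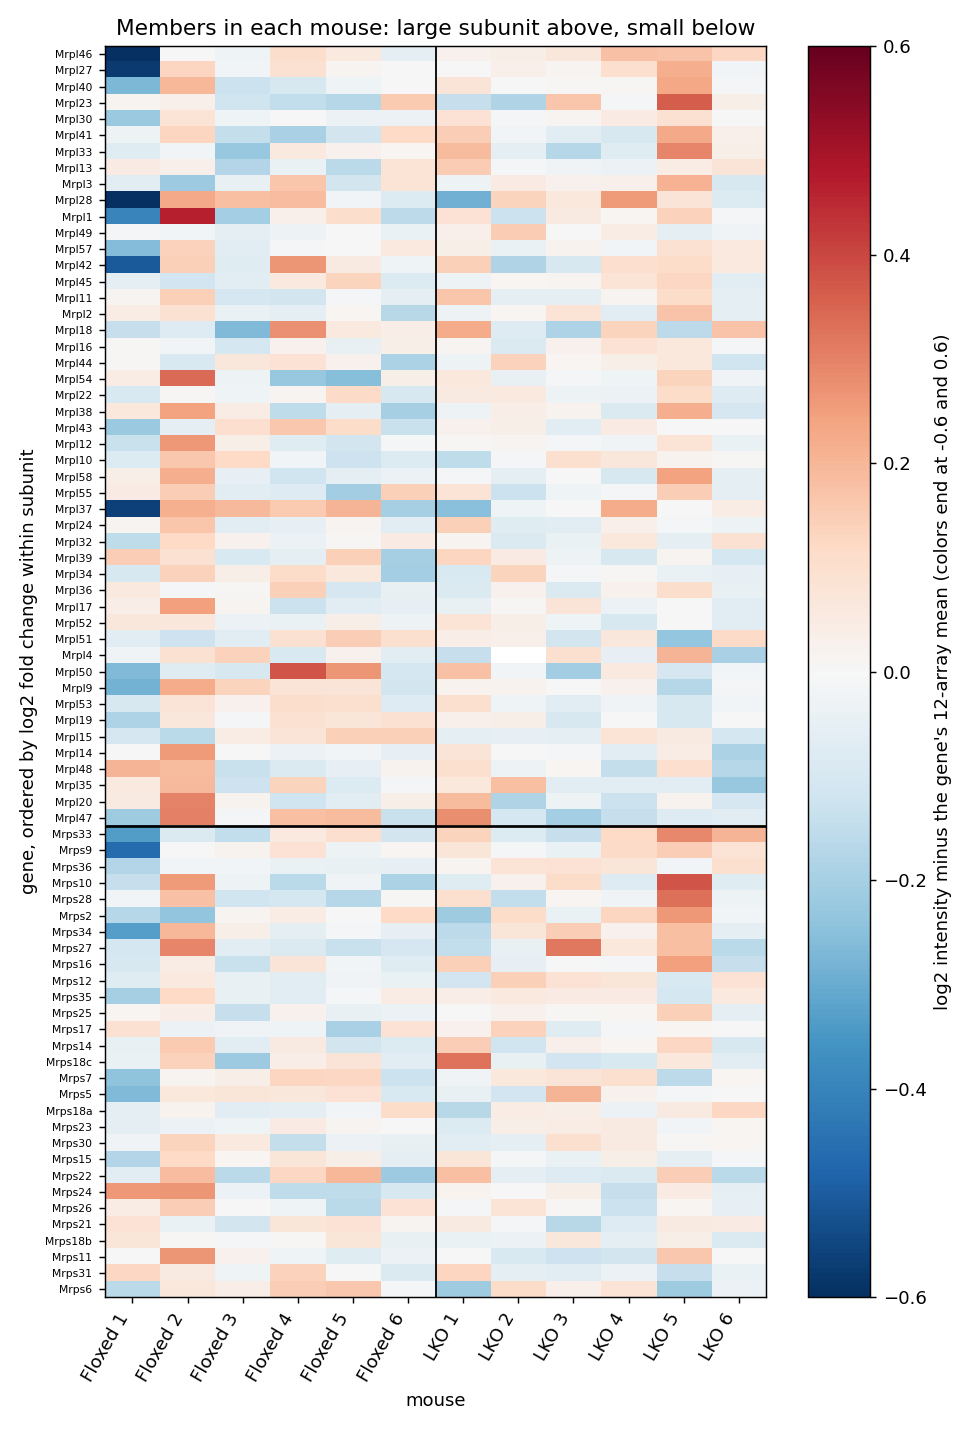
Distance of each log2 intensity from that gene's 12-array mean (color, ending at -0.6 and 0.6) for the 77 members (rows, ordered by log2 fold change within each subunit) in the 12 mice (columns, Floxed left of the line and LKO right of it). The darkest blue cells stand in Floxed 1, and the white cell of Mrpl4 in LKO 2 is a spot left out as an outlier.

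In the large subunit, the highest log2 fold changes belonged to Mrpl46, Mrpl27 and Mrpl40, none of which was called. Mrpl46, a mitochondria-specific protein, had values of 9.12, 9.80, 9.77, 9.90, 9.85 and 9.74 in Floxed 1 to 6 and of 9.82, 9.83, 9.87, 9.97, 9.97 and 9.92 in LKO 1 to 6. The groups overlapped, and Floxed 1 stood far below all other mice. The log2 fold change was 0.20 (SE 0.12, exact permutation p = 0.0368, limma adjusted p = 0.752), and without Floxed 1 it was 0.08. Mrpl27, the counterpart of bacterial L27 near the peptidyl transferase center, had 12.00 in Floxed 1, 12.56 to 12.71 in the other Floxed mice and 12.56 to 12.80 in LKO mice. Its log2 fold change of 0.12 (SE 0.11) became 0.01 without Floxed 1. Mrpl40, a mitochondria-specific protein, had 11.07 to 11.54 in Floxed and 11.33 to 11.57 in LKO mice, a log2 fold change of 0.11 (SE 0.08).

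The lowest log2 fold changes, also without a call, were closer to 0. Mrpl47, a protein of the exit tunnel region, had 10.39 to 10.90 in Floxed mice. In LKO mice it had 10.88 on the array labeled LKO 1 and 10.39 to 10.53 on the others. Its log2 fold change was -0.11 (SE 0.11), while slide 2 alone gave 0.06 and a dimmer second probe also gave 0.06, the opposite sign. Mrpl20 (-0.08, SE 0.09) and Mrpl35 (-0.06, SE 0.09), both with bacterial counterparts, came next. On slide 2, Mrpl35 was higher in LKO mice by 0.17. The stalk proteins Mrpl10, Mrpl11 and Mrpl12 gave 0.01 (SE 0.07), 0.04 (SE 0.07) and 0.01 (SE 0.08), and their groups overlapped widely.

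In the small subunit, Mrps33 had 12.05, 12.30, 12.24, 12.44, 12.49 and 12.27 in Floxed 1 to 6 and 12.52, 12.30, 12.25, 12.50, 12.67 and 12.59 in LKO 1 to 6. Of the LKO mice, 4 lay above every Floxed mouse and the other 2 lay among them. The log2 fold change was 0.17 (SE 0.10, exact permutation p = 0.0779, limma adjusted p = 0.730), and on slide 2 the difference was 0.03. It was called without LKO 3 (0.22), where 7.18% of all genes were called, and with normexp background correction (0.22), where 8.4% were. With the mean of its probes it was 0.09 and not called. Mrps9, the counterpart of bacterial S9, gave 0.12 (SE 0.09), or 0.04 without Floxed 1.

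Mrps36 came closest to a separation of the groups. Its values were 10.98, 11.14, 11.14, 11.12, 11.11 and 11.11 in Floxed 1 to 6 and 11.17, 11.24, 11.24, 11.23, 11.14 and 11.25 in LKO 1 to 6. On this brighter probe, the highest Floxed value, 11.1423, and the lowest LKO value, 11.1419, were equal to 3 decimals. Otherwise every LKO mouse lay above every Floxed mouse there. The difference was small, a log2 fold change of 0.11 (SE 0.06, exact permutation p = 0.0043, limma adjusted p = 0.697), or 1.08-fold, and on slide 2 it was 0.095. Without Floxed 1 it was 0.09. A dimmer second probe gave 0.10, but its groups overlapped widely, with 9.53 to 9.90 in Floxed and 9.73 to 9.97 in LKO mice. Besides the test of the study's methods, limma without the filter on dim probes also called it, where 8.58% of all genes were called. The protein was first listed with the mitochondrial ribosome and is also known as a subunit of the 2-oxoglutarate dehydrogenase complex.

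Of the 9 small-subunit members below 0, none was called, and the lowest were Mrps6 (-0.08, SE 0.09), Mrps31 (-0.07, SE 0.07) and Mrps11 (-0.05, SE 0.08). Mrps6, the counterpart of bacterial S6, had 10.31 to 10.63 in Floxed and 10.26 to 10.58 in LKO mice, and the difference on slide 2 was -0.13. Mrps12, a protein of the decoding region, had 13.14 to 13.27 in Floxed and 13.10 to 13.35 in LKO mice, with a log2 fold change of 0.06 (SE 0.07). The paralogs Mrps18a, Mrps18b and Mrps18c gave 0.02 (SE 0.07), -0.04 (SE 0.06) and 0.02 (SE 0.09). Mrps18a and Mrps30 (0.02, SE 0.07) carry small-subunit symbols although their proteins sit in the large subunit. The comparison of the large with the small subunit counted them as small, by symbol. A call is made gene by gene and does not depend on the subunit.

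**Figure D4:**
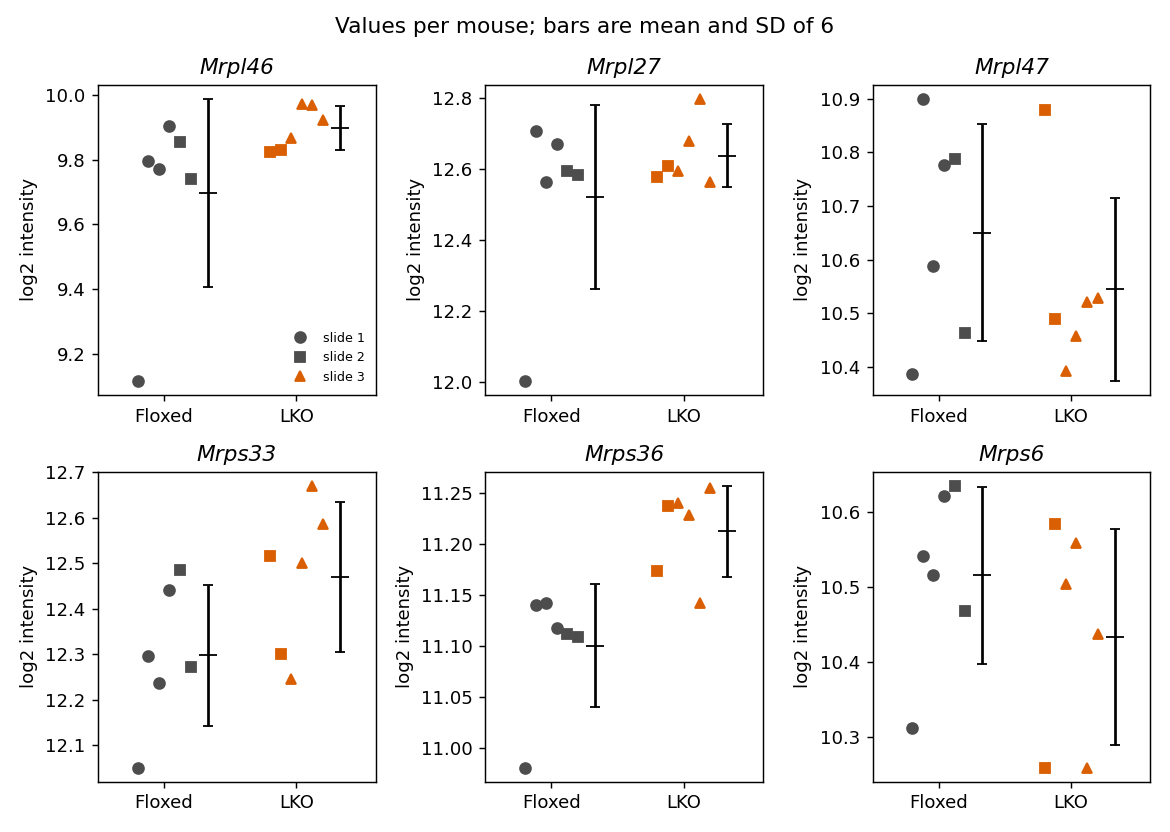
Log2 intensity of 6 members in each mouse, Floxed in gray and LKO in orange, with symbols for the slide and bars for the mean and SD of 6 mice. Floxed 1 is the lowest point of Mrpl46 (9.12) and Mrpl27 (12.00), the array labeled LKO 1 is a high point of Mrpl47 (10.88), and the groups of Mrps36 touch at 11.14.

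Several members were read by more than 1 probe. Of 21 members with a pair of kept probes, 9 had fold changes of opposite sign between them. The largest gap was in Mrps25, with 0.05 for the brighter and -0.27 for the dimmer probe. Mrpl21, the gene that was too dim, had values of 1.03 to 2.07 in Floxed and 1.30 to 2.98 in LKO mice. Its levels are bounds only, so no fold is given.

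Many members share their start region with another gene in the opposite direction. Of the 69 members with a window, 21 (30.4%) had a head-to-head neighbor within 300 bases, against 9.47% of 27025 genes with a window. Mrpl46 and Mrps11, 42 bases apart in the Mrps11 window shown above, are both members, and their log2 fold changes were 0.20 and -0.05. Of 17 tested neighbors that are not members, 2 were called (11.8%, where 8.35% of all genes were) and the median was -0.032. The called genes were Sars2 and Hira. Sars2, the mitochondrial seryl-tRNA synthetase, which charges the tRNA with serine, starts 147 bases from Mrps12 and was higher in LKO mice (log2 fold change 0.43, SE 0.19, limma adjusted p = 0.565), where Mrps12 gave 0.06. Hira, a histone chaperone, starts 113 bases from Mrpl40 and was lower (-0.43, SE 0.18, limma adjusted p = 0.528), where Mrpl40 gave 0.11. Eme1, 48 bases from Mrpl27, gave -0.26 (limma adjusted p = 0.615) and was not called. Mitd1, 66 bases from Mrpl30, also gave -0.26 (limma adjusted p = 0.730) and was not called, where Mrpl30 gave 0.08. The tested genes of the other pairs gave smaller values, such as 0.18 for Cyb5rl beside -0.0025 for Mrpl37. They included 0.01 for Mrpl43 beside 0.07 for Twnk, the mtDNA helicase, and 0.05 for Mrpl49 beside 0.04 for the cytosolic ribosomal gene Fau.

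The other genes of mitochondrial translation were then examined. The 5 ribosomal proteins with other symbols were all higher in LKO mice and 0 were called. They were Dap3 (0.11), Ptcd3 (0.05), Aurkaip1 (0.01), Chchd1 (0.01) and Gadd45gip1 (0.08). Gadd45gip1 varied most, from 12.58 to 13.62 in Floxed and from 12.58 to 13.53 in LKO mice. Of 18 tested translation factors, 14 were higher, 4 were lower and 0 were called, and the median was 0.042. The extremes were Tsfm, the exchange factor of the elongation factor Tufm (0.18, SE 0.14), and Lrpprc, which stabilizes mitochondrial mRNAs (-0.11, SE 0.14). Of 31 factors of ribosomal RNA modification and ribosome assembly, 21 were higher, 10 were lower and 0 were called, and the median was 0.033. Gtpbp10, a GTPase of large-subunit assembly, had 8.74 to 9.05 in Floxed and 8.93 to 9.49 in LKO mice, with the highest in LKO 5. Its log2 fold change was 0.21 (SE 0.10, exact permutation p = 0.0195, limma adjusted p = 0.608). It was not called, nor was it under 75th percentile scaling or with slide as a fixed block, and on slide 2 the difference was 0.094. It was called with normexp (8.4% of all genes were), without the dim filter (8.58%) and with slide as a random block (11.4%). Calls also came with the replicate number as a block (0.21, with 1428 genes called) and without Floxed 5, LKO 2 or LKO 4 in turn (0.23 to 0.24). The lowest value was -0.25 (SE 0.22) for the RNA methyltransferase Trmt61b. The test of the study's methods called 3 of these 49 factors, Mterf4, Mtfmt and Pdf, where it called 7.31% of all genes.

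Of 18 genes of mtDNA copying, transcription and RNA processing, 10 were higher, 8 were lower and 0 were called, with a median of 0.015. Polrmt, the mitochondrial RNA polymerase, had 9.38 to 9.66 in Floxed mice. In LKO mice it had 6.30 in LKO 5 and 9.47 to 9.68 in the others. Its log2 fold change of -0.51 (SE 0.49) rested on that array and was 0.03 without it. Mterf2, an mtDNA-binding protein, gave 0.27 (SE 0.19). The cytosolic ribosomal proteins, a list added for comparison, had a median of -0.015 over 74 genes, with 24 higher, 50 lower and 0 called.

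Of the 9 nuclear regulators of these genes that were examined, 1 was called. Pprc1, a coactivator of NRF1 in the PGC-1 family, had 6.70, 6.85, 6.70, 6.54, 6.22 and 6.62 in Floxed 1 to 6 and 5.89, 5.85, 6.36, 6.32, 6.65 and 6.24 in LKO 1 to 6. The arrays labeled LKO 1 and LKO 2 were lowest, and the groups overlapped through Floxed 5 and LKO 5. The log2 fold change was -0.39 (SE 0.14, exact permutation p = 0.0368, limma adjusted p = 0.451), and on slide 2 the difference was -0.55. Without the arrays labeled LKO 1 and LKO 2 it was -0.22 and not called, where 12.8% of all genes were called, and with the replicate number as a block it was -0.39 and not called. Pprc1 stayed called with slide as a fixed block (1.87% of all genes called), which compares the genotypes only through slide 2. It also stayed called with slide as a random block (11.4%) and under 75th percentile scaling. This 1 call among 9 regulators, 11.1%, stands beside 8.35% of all genes. Myc had 4.42 to 6.60 in Floxed mice, 7.11 in LKO 5 and 3.63 to 4.84 in the other LKO mice. Its log2 fold change was -0.89 (SE 0.52, exact permutation p = 0.160, limma adjusted p = 0.749), and without LKO 5 it was -1.36 and called, where 6.98% of all genes were called. Nrf1 (-0.16), Yy1 (-0.08), Gabpa (0.07), Gabpb1 (-0.0018), Ppargc1a (-0.17), Ppargc1b (-0.07) and Esrra (0.14) did not pass the test.

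**Figure D5:**
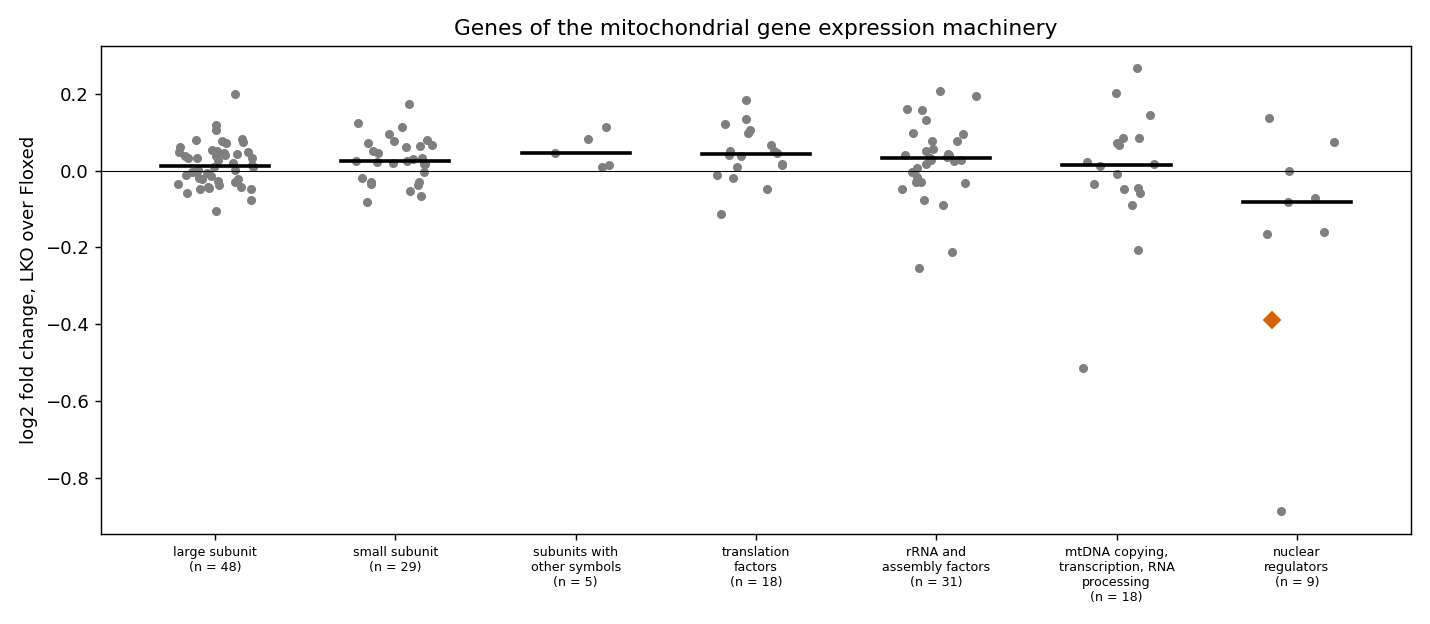
Log2 fold change of LKO over Floxed livers (vertical axis) for each tested gene of both subunits and of 5 related lists, with a bar at the median of each list. The only orange diamond, which marks a called gene, is Pprc1 at -0.39, and the lowest points are Polrmt at -0.51 and Myc at -0.89.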

How the data were processed

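The authors hybridized liver RNA to single-color Agilent arrays, and the deposited scanner files give processed signal intensity per spot from Feature Extraction (version 9.5.1.1 in the submitters' notes, 10.7.1.1 per the file headers), background-subtracted and not normalized between arrays. The authors' own table holds quantile-normalized intensity and served as an alternative. Extraction is given as a column kit in the methods and as TRIzol with columns per the labels.

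Control spots (1377 per array) and spots with outlier flags (0.298%) were left out. For Mrpl4 this dropped LKO 2. Processed signals were log2 transformed and quantile normalized, spots of a probe were averaged, and 20404 probes passed, each well above background on every array, which stands in for the study's detection p. Each gene was read by its brightest kept probe. RefSeq accessions named 94.3% of 28389 probes. LKO was tested against Floxed with limma 3.58.1 in R 4.3.3 over 16915 genes, without covariates, and called at an unadjusted p below 0.05, beside the Benjamini-Hochberg adjusted p over all genes. The fit was tested on simulated data. Each mouse is a separate animal. Members, gene lists and the choice of named genes were made with earlier results of these data known. Named were the 3 largest rises and falls per subunit, stalk, decoding and paralogous proteins, subunits with other symbols, and the called genes and extremes of each pathway list. The Mrps25 probes, the genes low in Floxed 1, head-to-head neighbors and the cytosolic ribosomal list were chosen after their values were seen. Alternatives changed the scaling, background correction, filter, probe rule, test, slide term, replicate number and arrays used.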

Additional observations from a re-analysis of the deposited data

Results flagged for a closer look

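Among the named genes and the subunit means, the highest or lowest mouse of a group of 6 lay far from the others in 13 of 76 groups. Chance gives about 1 in 20 groups, but that rate does not apply here, since several genes were named for extreme values. Over all members, chosen by symbol, it was 14 of 154 groups, against 7.7 by chance, though genes on the same arrays are not independent, and 6 of the 14 were a lowest value in Floxed 1. The 154 include the LKO group of Mrpl4, which lacked an array and could not be flagged.

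Floxed 1 was far below the other Floxed mice for Mrpl27 (12.00, others 12.56 to 12.71), Mrpl46 (9.12, others 9.74 to 9.90), Mrps36 (10.98, others 11.11 to 11.14), Mrps9 (8.56, others 8.99 to 9.11) and the elongation factor partner Tsfm (7.31, others 7.80 to 8.08). Large minus small deviation was also lowest in Floxed 1, at -0.028, against 0.0054 to 0.021 in the others. Floxed 2 was far above the others for Mrps11 (9.11, others 8.77 to 8.87).

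LKO 5 was far above the other LKO mice for Mrpl40 (11.57, others 11.33 to 11.42), Gtpbp10 (9.49, others 8.93 to 9.07) and Myc (7.11, others 3.63 to 4.84), and far below them for Polrmt (6.30, others 9.47 to 9.68). The array labeled LKO 1 was far above the others for Mrpl47 (10.88, others 10.39 to 10.53), and LKO 4 far below them for Gadd45gip1 (12.58, others 13.19 to 13.53). The causes were not tested.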

How the results depend on the processing

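The number of members called, 0, stayed at 0 under 75th percentile scaling, the authors' table, a weaker dim filter and outlier spots kept. It also stayed at 0 with the mean of probes, slide as a fixed or random block, and the replicate block. It was 1 with normexp (Mrps33, small subunit), 1 with the methods' t-test at unadjusted p (Mrps36, small subunit) and 2 with no filter on dim probes (Mrpl21 of the large and Mrps36 of the small subunit, 1 each). Of all genes, 8.4%, 7.31% and 8.58% were called under these. The cause was not tested. Without each array in turn, the count was 0 to 1 for the members, 0 to 0 for the large and 0 to 1 for the small subunit. The 1 call, Mrps33, came without LKO 3. For the translation and assembly factors, 0 became 3 with normexp (8.4% of all genes called), 2 without the dim filter (8.58%) and 1 with the mean of probes. It became 3 with the methods' t-test (7.31%), 2 with slide as a random block (11.4%), and 0 to 2 without each array in turn (2 without Floxed 5). After the data had been seen, the arrays labeled LKO 1 and LKO 2, or the 3 dimmest arrays, were left out. Members called stayed at 0, and the factors gave 1 without LKO 1 and LKO 2, where 12.8% of all genes were called. Median log2 fold changes moved by less than the spread between mice, between -0.0031 and 0.030 (large) and 0.015 and 0.040 (small) without each array in turn. Of 910 values of 35 named genes under alternatives, 57 changed sign without a call and 0 changed sign with one. Phgdh was not called under 75th percentile scaling (-0.34), slide as a fixed block (-0.055) or without the 3 dimmest arrays (-0.35). With the replicate number as a block, 1428 genes were called (1413 without it), 0 members and 1 factor, Gtpbp10, while Pprc1 was not called (-0.39). The Floxed mice were littermates of LKO mice, and the sample titles give mice of the same number neighboring identifiers. Whether a number marks a litter is not given in the sources used here. Correlations between arrays with the same number ran from -0.24 to 0.32, and the numbers were not taken to pair mice. Arrays with the same number lay on different slides, so these correlations cannot decide whether the mice were paired. The main fit and the exact permutation tests treat the mice as unpaired. Probes not well above background limit Mrpl21.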
